A study of Mus musculus with 5 samples.

Results

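Potassium channel genes were examined in the striatum of mice that model Huntington's disease (HD). They were chosen by name: every probe whose gene symbol on the array's platform starts with Kcn was taken, and the brightest probe stood for its gene. This gave 90 genes on 105 probes, of 17742 named genes, in a table of 26423 probes. The name also takes in Kcnq1ot1, a non-coding RNA, and Kcnrg, a regulator of channel assembly, which are not channels. The HD_miR196a group held 3 male FVB mice aged 12 months that carried the HD transgene and also overexpressed the precursor of the microRNA miR-196a from a human ubiquitin promoter. The HD group held 2 male FVB mice of the same age with the HD transgene alone. The HD transgene, present in all 5 mice, joins GFP to the first exon of human HTT, carries 84 CAG repeats and has a human ubiquitin promoter too, which is active in most cell types. Mice without it were not analysed here. Per the labels, the HD_miR196a mice showed improved and the HD mice weak motor function.

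Potassium channels let potassium leave the cell and so pull the membrane towards rest. Most striatal neurons are medium spiny neurons. They rest at a very negative potential held by inwardly rectifying channels of the Kir2 family, and fast A-type channels built from Kv4 subunits and their KChIP partners delay their first spike. Channels of this kind also set axonal firing, the resting potential of astrocytes and the tone of small vessels. The groups differed by the overexpressed microRNA, whose mature 5p strand is printed because it defines the comparison. Mouse RefSeq (GRCm38.p6) lists the same strand at Mir196a-1, on chr11:96265187-96265208 (plus strand), and at Mir196a-2, on chr15:102973365-102973386 (plus strand). Capitals mark the seed, bases 2 to 8, through which a microRNA pairs with its targets.
mmu-miR-196a-5p: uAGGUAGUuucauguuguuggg
Whether any Kcn transcript holds a matching site was not analysed here.

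Levels are log2 of the quantile-normalized intensity. Before normalization the deposited medians were 160.0, 166.3 and 166.2 in HD_miR196a mice, against 184.3 and 185.6 in HD mice. Every HD_miR196a array was thus dimmer than both HD arrays. Normalization removes this offset, and whether it came from handling or from the mice cannot be told apart in this design. Background was read from 543 probes for olfactory receptors, genes little used outside the nose: their median was 4.98 and their 95th percentile 8.31 on this scale. The tissue label was checked with 23 measured genes of medium spiny neurons, of which 18 lay above that percentile. The probes of Foxp2 and Drd2 were at the floor of 0 in 1 mouse each, and the mean of the other 21 genes, a selection made after these values were seen, was 11.25, 11.32 and 11.17 in HD_miR196a mice 1 to 3, against 10.77 and 11.10 in HD mice 1 and 2. With all 23 the means were 10.36, 10.75 and 10.63 in HD_miR196a mice, against 10.23 and 10.63 in HD mice. Genes of cortical neurons, which lie next to the striatum, varied more between mice: the mean of 21 genes was 9.13, 10.54 and 10.31 in HD_miR196a mice, against 9.39 and 10.74 in HD mice. For the cortical genes mouse 1 was the lowest of each group.

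Of the 90 potassium channel genes, 36 (40.0%) had a mean above the olfactory receptor 95th percentile, compared with 48.8% of all named genes. All 3 Kcnab genes, 3 of 4 Kcnip genes and 10 of 15 Kcna, Kcnb, Kcnc and Kcnd genes were above it. So were 4 of 8 Kcnh, 5 of 15 Kcnj, 4 of 13 Kcnk, 1 of 3 Kcnq and 4 of 12 Kcnm, Kcnn, Kcnt and Kcnu genes. Only 1 of 10 genes of the silent Kv subunits (Kcnf, Kcng, Kcns and Kcnv), 1 of 5 Kcne genes and neither of the remaining 2 genes reached it. The genes nearest to the limit were Kcne1l at 8.33 and Kcnk6 at 8.35 on the upper side, and Kcnj9 at 8.29 and Kcnf1 at 8.28 on the lower. A level below the limit does not separate a gene from silent ones by this rule, and does not show that the gene is silent.

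**Figure D1:**
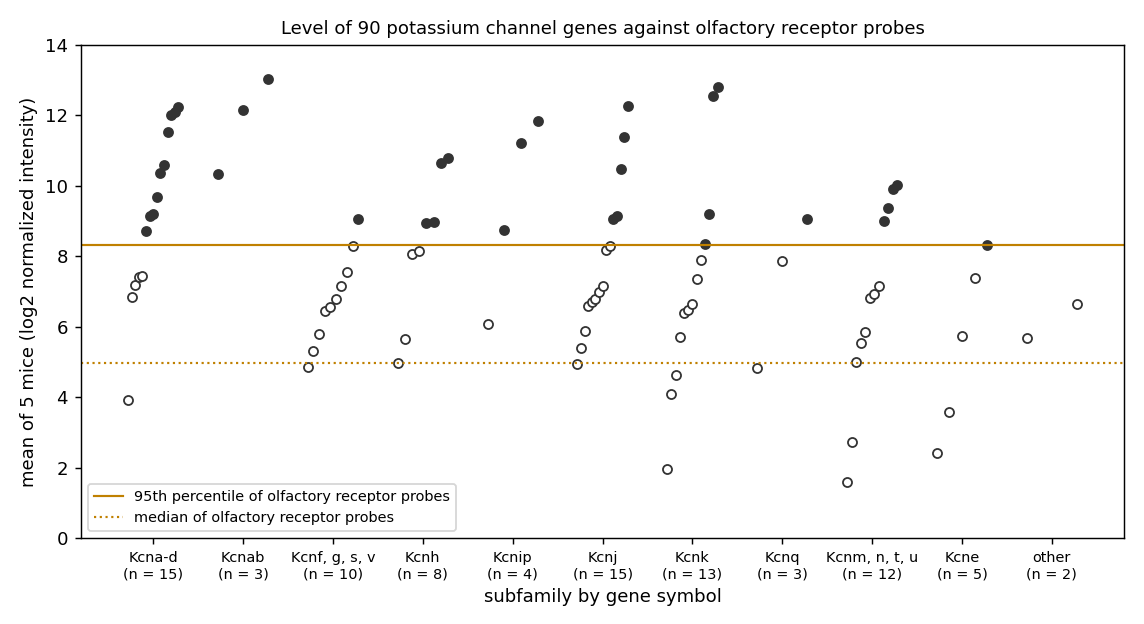
Mean level over the 5 mice (vertical axis, log2 normalized intensity) of each of the 90 potassium channel genes, placed by subfamily (horizontal axis). Filled points are the 36 genes above the 95th percentile of olfactory receptor probes at 8.31 (solid line), open points are the rest, and the dotted line is the olfactory receptor median at 4.98.

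The comparison asks which of these genes differ when miR-196a is overexpressed in striatum that carries mutant HTT. No potassium channel gene passed the threshold: limma called 0 of the 90 at a Benjamini-Hochberg adjusted p under 0.05, where it called 0% of all 26423 probes, and the smallest adjusted p of a member was 0.979. At an unadjusted p under 0.05 it found 1 member, against 3.71% of all named genes and 4.16% of all probes. Of the members, 48 were higher and 42 lower in HD_miR196a mice, with a median difference of 0.03 on the log2 scale, beside a median of 0.00 (rounded) and 48.9% higher over all named genes. Without scaling between arrays 15 of the 90 were higher, and the median over every probe then moved to -0.20. The groups did not overlap at 11 members, against 20.7% of all named genes. Of the 11, 6 were higher, against 10% of all named genes, and 5 lower, against 10.7%. Among the 36 brighter members the groups did not overlap at 3, against 20.3% of named genes above the same limit.

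For the genes with signal above background the data also give limits on the size of a difference. These limits hold after normalization, and without scaling the median over every probe moved to -0.20. Among the 36 brighter genes the 95% interval of limma lay within 1 on the log2 scale, a 2-fold difference, in either direction for 34. The exceptions were Kcnh3, with an interval from -0.58 to 1.12, and Kcnk13, with one from -0.10 to 1.12. For 17 of the 36 it lay within 0.5 (1.41-fold). Over all named genes above the same limit these shares were 95.3% and 64.6%.

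**Figure D2:**
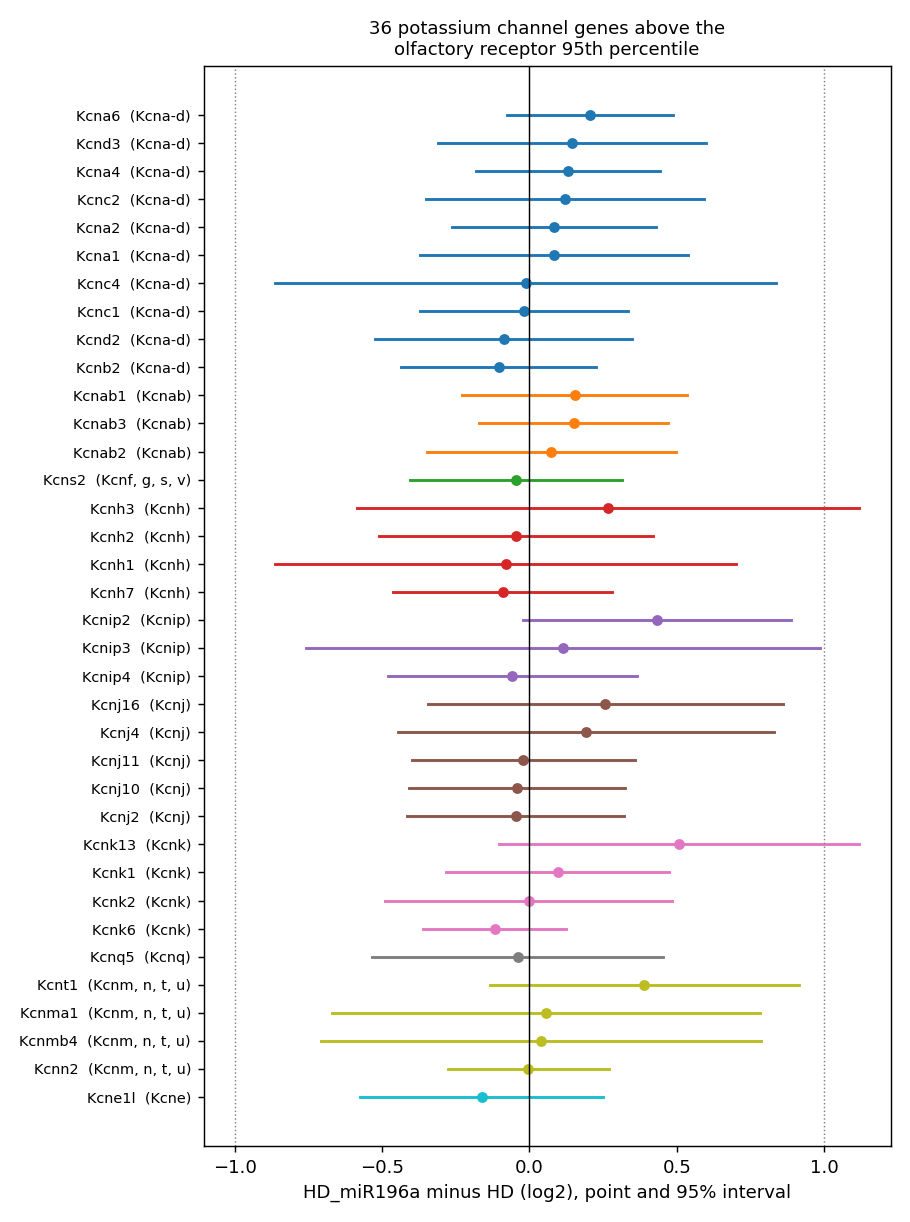
Difference between the groups, HD_miR196a minus HD on the log2 scale (horizontal axis), for the 36 potassium channel genes above the olfactory receptor 95th percentile, by subfamily. Points are differences and lines their 95% intervals from limma with 3 HD_miR196a and 2 HD mice. Every line crosses 0, and 34 of the 36 stay between the dotted lines at -1 and 1.

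Pore-forming Kv subunits carry the delayed and A-type currents that end and space action potentials. Kcna6, a Kv1 subunit, had levels of 12.25, 12.24 and 12.06 in HD_miR196a mice, against 11.93 and 12.02 in HD mice. The groups did not overlap, and the difference was 0.21 ± 0.11 (SE, limma adjusted p = 0.979). Without scaling it was -0.04, and a second probe of the gene differed by -0.01 ± 0.10. Kcna1, which sits at axons, had 12.02, 12.29 and 12.45 in HD_miR196a mice, against 12.04 and 12.30 in HD mice. Its groups overlapped, as did those of Kcna2, its usual partner, which differed by 0.08 ± 0.13 (SE). Kcna4, the Kv1 subunit with fast inactivation, differed by 0.13 ± 0.12 (SE). Of the Kv3 subunits, which allow fast spiking, Kcnc1 differed by -0.02 ± 0.14 (SE). Kcnb2, a Kv2 subunit, differed by -0.10 ± 0.13 (SE), with groups that overlapped.

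Kv4 subunits and their KChIP partners form the A-type channels of medium spiny neurons. Kcnd2, a Kv4 pore subunit, had levels of 12.10, 11.88 and 11.96 in HD_miR196a mice, against 11.85 and 12.28 in HD mice. The HD mice lay on either side of the other 3, and the difference was -0.09 ± 0.17 (SE), with a 95% interval from -0.52 to 0.35. Kcnd3 differed by 0.14 ± 0.17 (SE), and Kcnd1 stayed below the background limit at a level of 7.44. Kcnip2, which encodes KChIP2, had 8.92, 9.10 and 8.77 in HD_miR196a mice, against 8.30 and 8.69 in HD mice. All 3 HD_miR196a mice were above both HD mice. The difference was 0.43 ± 0.17 (SE), a 1.35-fold ratio, with an interval from -0.02 to 0.89 and an adjusted p of 0.979 in limma. It was 0.24 without HD mouse 1 and 0.62 without HD mouse 2. Kcnip3, whose product also binds DNA as DREAM, had 10.78, 11.44 and 11.58 in HD_miR196a mice, against 10.81 and 11.49 in HD mice, so that mouse 1 was low in each group. Kcnip4 differed by -0.06 ± 0.16 (SE), and Kcnip1 was below the limit at 6.08.

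The list of medium spiny neuron genes differed in the same direction as Kcnip2. Of the 23 measured, 19 were higher in HD_miR196a mice, with a median difference of 0.33 on the log2 scale. The groups did not overlap at 12 of the 23, all higher, against 10% of all named genes, and 9 were at an unadjusted p under 0.05, against 3.71%. None was called by limma after adjustment. These counts hold after normalization, and the list was not read without scaling. Without scaling the median over every probe moved to -0.20 and the difference of Kcnip2 to 0.22. The list means of the medium spiny neuron genes, given above, did not overlap between the groups over the 21 genes without a floored probe, and overlapped over all 23. Their part in the value of Kcnip2 was not tested, and in bulk tissue more cells of a type and more RNA per cell cannot be told apart. Foxp2 and Drd2 of that list give no usable reading, since the probe of Foxp2 was at the floor of 0 in HD_miR196a mouse 1 and that of Drd2 had a mean level of 0.87.

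Beta subunits encoded by Kcnab genes bind the inner face of Kv1 channels. Kcnab1 had levels of 13.09, 13.14 and 13.04 in HD_miR196a mice, against 12.74 and 13.14 in HD mice. HD mouse 2 lay within the range of the HD_miR196a mice and HD mouse 1 below it, and the difference was 0.15 ± 0.15 (SE). Kcnab2 differed by 0.07 ± 0.16 and Kcnab3 by 0.15 ± 0.12 (SE), so all 3 differences were above 0 and none was called. Without scaling all 3 were below 0, at -0.08 for Kcnab1, -0.17 for Kcnab2 and -0.09 for Kcnab3. Of the silent subunits, which join Kv2 channels and alter them, only Kcns2 was above the limit, with a difference of -0.05 ± 0.14 (SE).

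Inward rectifiers fall into the Kir2 channels of neurons, the G-protein-gated and ATP-sensitive channels, and the channels of glia. Kcnj4, a Kir2 gene strongly used by medium spiny neurons, had levels of 11.48, 11.79 and 11.14 in HD_miR196a mice, against 11.07 and 11.48 in HD mice. The groups overlapped, with a difference of 0.19 ± 0.24 (SE) and an interval from -0.45 to 0.83. Kcnj2, the other Kir2 gene above the limit, had 10.36, 10.42 and 10.59 in HD_miR196a mice, against 10.36 and 10.65 in HD mice, a difference of -0.05 ± 0.14 (SE). Kcnj10, the main potassium channel of astrocytes, had 12.39, 12.08 and 12.27 in HD_miR196a mice, against 12.39 and 12.19 in HD mice. Its interval ran from -0.41 to 0.32. Its partner Kcnj16 differed by 0.26 ± 0.23 (SE) and was highest in HD_miR196a mouse 1 and lowest in HD mouse 2.

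The G-protein-gated genes Kcnj3, Kcnj5, Kcnj6 and Kcnj9 were all below the background limit. Kcnj8, the pore of the vascular ATP-sensitive channel, was the member at an unadjusted p under 0.05 and is named after its values were seen. It had 6.89, 6.88 and 6.94 in HD_miR196a mice, against 6.51 and 6.69 in HD mice, all below the background limit. The groups did not overlap, and the difference was 0.30 ± 0.10 (SE, unadjusted p = 0.0330, limma adjusted p = 0.979). Genes of endothelium and pericytes, the cells in which Kcnj8 is known, were higher for 8 of 13 measured, with a median of 0.06 and list means of 8.51, 8.64 and 8.50 in HD_miR196a mice, against 8.46 and 8.57 in HD mice. Their part in the value of Kcnj8 was not tested.

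**Figure D3:**
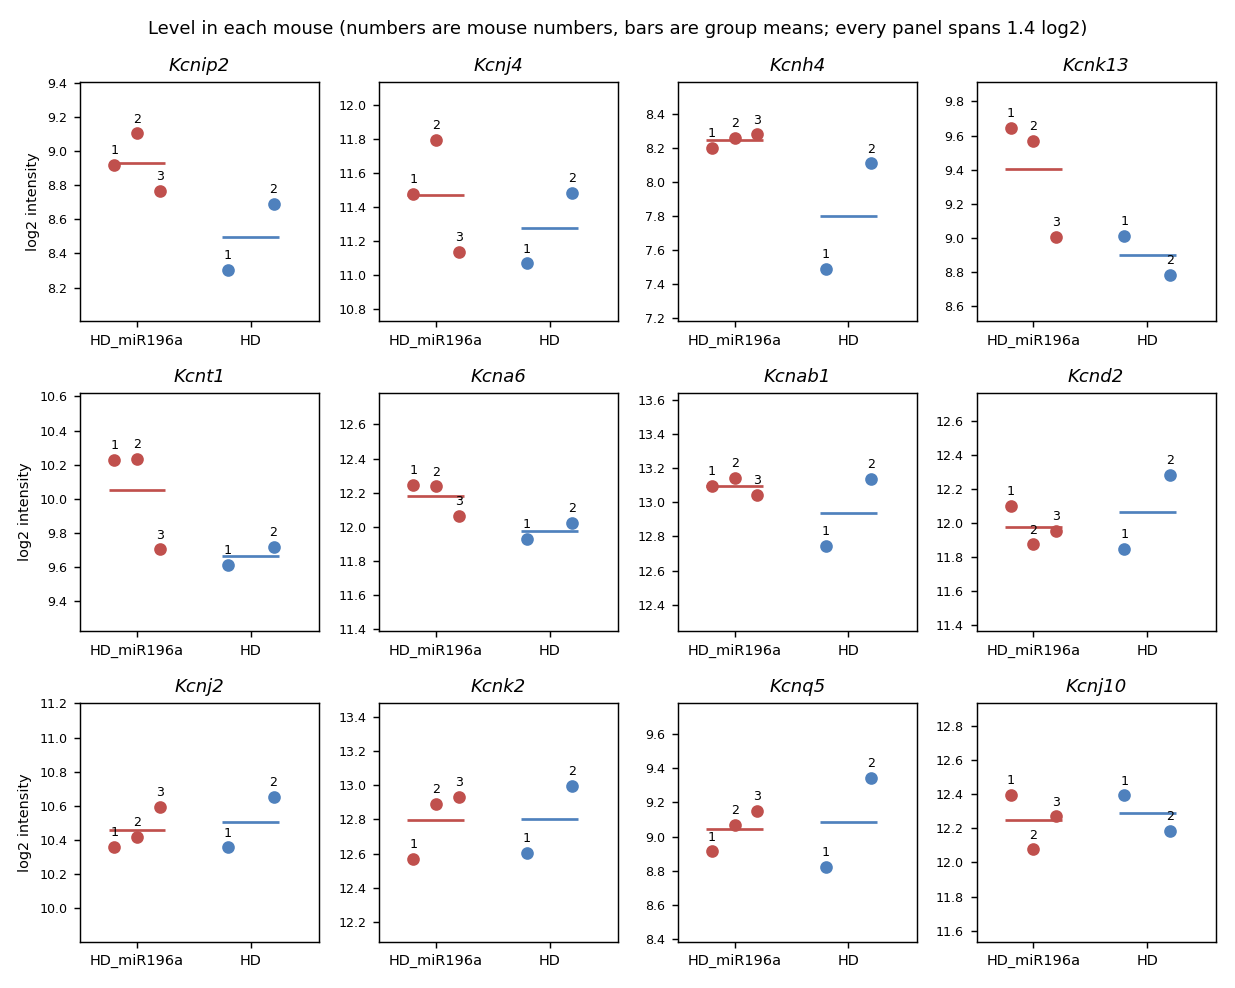
Level of 12 potassium channel genes (vertical axes, log2 normalized intensity) in each HD_miR196a mouse (left in each panel, n = 3) and each HD mouse (right, n = 2), with mouse numbers above the points and bars at group means. Each vertical axis spans 1.4 on the log2 scale, and the groups are apart without overlap in the panels of Kcnip2, Kcnh4 and Kcna6.

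Kcnk genes encode the leak channels that set resting conductance. Kcnk2, the stretch-sensitive channel TREK-1, had levels of 12.57, 12.89 and 12.93 in HD_miR196a mice, against 12.60 and 13.00 in HD mice, and its group means were the same to 2 decimals. Kcnk1, the channel TWIK-1, had 12.49, 12.62 and 12.67 in HD_miR196a mice, against 12.32 and 12.67 in HD mice, with a difference of 0.10 ± 0.14 (SE). Kcnk13, the channel THIK-1 of mouse microglia, had 9.64, 9.57 and 9.00 in HD_miR196a mice, against 9.01 and 8.78 in HD mice. HD_miR196a mouse 3 lay below HD mouse 1, and the difference was 0.51 ± 0.23 (SE), a 1.42-fold ratio with an adjusted p of 0.979 in limma. Of 11 microglia genes measured 5 were higher, with a median of -0.06 and list means of 10.49, 10.34 and 10.39 in HD_miR196a mice, against 10.52 and 10.42 in HD mice. Genes of oligodendrocytes were higher for 17 of 18, with list means of 11.60, 11.23 and 11.01 in HD_miR196a mice, against 11.23 and 10.82 in HD mice. Choroid plexus genes had means of 8.27, 7.57 and 7.53 in HD_miR196a mice, against 7.97 and 7.66 in HD mice. The means of both lists had the same order within each group as Kcnk13. For choroid plexus genes the order of HD_miR196a mice 2 and 3 rested on Slc4a5, at 5.43 and 3.11, both below the background limit. Most genes of that list were higher in HD_miR196a mouse 3 than in mouse 2. The part of any of these lists in the value of Kcnk13 was not tested. Kcnk6 lay just above the limit and was lower in all HD_miR196a mice, at 8.34, 8.30 and 8.26, against 8.47 and 8.36 in HD mice, a difference of -0.12 ± 0.09 (SE).

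Kcnh channels open slowly around rest. Kcnh4, which is enriched in forebrain, had levels of 8.20, 8.26 and 8.28 in HD_miR196a mice, against 7.49 and 8.11 in HD mice, all below the background limit. The groups did not overlap, and the difference was 0.45 ± 0.20 (SE, limma adjusted p = 0.979). It was 0.14 without HD mouse 1 and 0.76 without HD mouse 2. Kcnh3, its relative above the limit, had 10.43, 11.06 and 10.77 in HD_miR196a mice, against 10.06 and 10.91 in HD mice, with a difference of 0.27 ± 0.33 (SE). Kcnh1 differed by -0.08 ± 0.30 and Kcnh7 by -0.09 ± 0.14 (SE), each with overlapping groups.

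Calcium- and sodium-activated channels shape the pause after a spike. Kcnt1, the sodium-activated channel Slack, had levels of 10.23, 10.23 and 9.70 in HD_miR196a mice, against 9.61 and 9.72 in HD mice. HD_miR196a mouse 3 lay between the HD mice, and the difference was 0.39 ± 0.20 (SE, limma adjusted p = 0.979), with 0.21 ± 0.11 on a dimmer second probe, on which the groups did not overlap. Kcnma1, the pore of the BK channel, differed by 0.06 ± 0.28 and its neuronal beta subunit Kcnmb4 by 0.04 ± 0.29 (SE). Kcnn2, a small-conductance channel, had 9.30, 9.48 and 9.29 in HD_miR196a mice, against 9.36 and 9.37 in HD mice. The HD mice lay between the HD_miR196a mice, and the interval ran from -0.28 to 0.27. Kcnq5, a subunit of the M-current that muscarinic receptors close, had 8.91, 9.07 and 9.15 in HD_miR196a mice, against 8.82 and 9.34 in HD mice. The groups overlapped, with a difference of -0.04 ± 0.19 (SE). Kcnq3 was below the limit and differed by 0.17 ± 0.16 (SE).

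The other members with groups that did not overlap were all dimmer than the background limit, and all but Kcnrg are named after their values were seen. Kcns3, a silent subunit, and Kcnn4, an intermediate-conductance channel, differed by 0.26 ± 0.12 and 0.21 ± 0.10 (SE). Other probes of Kcnn4 differed by -0.06 ± 0.10 and 0.38 ± 0.46 (SE). On the lower side, Kcne3, an accessory subunit, differed by -0.70 ± 0.31, the leak channel gene Kcnk3 by -0.28 ± 0.15, the small-conductance channel gene Kcnn1 by -0.36 ± 0.18 and Kcnrg by -0.12 ± 0.09 (SE). None was called.

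The gap between the HD mice was set beside the difference between group means. A gap between single mice is wider on average than one between means, even with no group effect. That it was wider here therefore says nothing about the groups, and the members can only be read against all named genes. The HD mice differed from each other by more than the group means did for 71 of the 90 potassium channel genes (78.9%). Over all named genes this share was 63.9%. The median absolute difference between the HD mice was 0.30 on the log2 scale for the members, and that between group means 0.11, beside 0.18 and 0.11 for all named genes. Kcnh3 was 0.86 higher on the log2 scale in HD mouse 2 than in HD mouse 1, and 0.63 higher in HD_miR196a mouse 2 than in HD_miR196a mouse 1. Kcnc4, a Kv3 subunit named after its values were seen, had 9.98, 10.74 and 11.00 in HD_miR196a mice, against 10.57 and 10.61 in HD mice. Kcnmb4 had 8.73, 9.22 and 9.07 in HD_miR196a mice, against 8.59 and 9.36 in HD mice. In each of these genes mouse 1 was the lowest of its own group.

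The same mice stood apart in a large share of the members. Both mice numbered 1 lay below the other 3 for 16 of the 36 brighter members (44.4%), compared with 16.3% of all named genes above the limit, and above them for 5 of 36, compared with 19.6%. The 16 include Kcnh1, Kcnh3, Kcnip3, Kcnc4, Kcnma1, Kcnmb4, Kcnq5 and Kcnk2, and the 5 are Kcnip4, Kcnj10, Kcnh2, Kcnh7 and Kcne1l. Across the 36 genes, the difference of HD mouse 2 from HD mouse 1 and that of HD_miR196a mice 2 and 3 from mouse 1 had a Pearson r of 0.66, beside 0.58 over all named genes above the limit, and 0.35 across all 90 members. This describes genes on the same 5 arrays and carries no test. The cortical neuron genes, with their means given above, were low in the same mice. Astrocyte genes were not: without Slc1a3, whose probe was at the floor of 0 in HD mouse 1, the mean of 12 genes was 12.27, 12.07 and 12.19 in HD_miR196a mice, against 12.29 and 12.21 in HD mice. The mean of all 23 medium spiny neuron genes was also lowest in mouse 1 of each group. Over the 21 without a floored probe this held in the HD group only. Means of oligodendrocyte, microglia and choroid plexus genes, and of the 12 astrocyte genes, were highest in mouse 1 of each group. So were those of thalamus and pallidum genes, at 9.72, 9.21 and 9.61 in HD_miR196a mice, against 9.62 and 9.02 in HD mice. The part of these lists in the spread of the potassium channel genes was not tested. With mouse 1 of each group left out, 49 of the 90 members were higher and 0 were called.

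**Figure D4:**
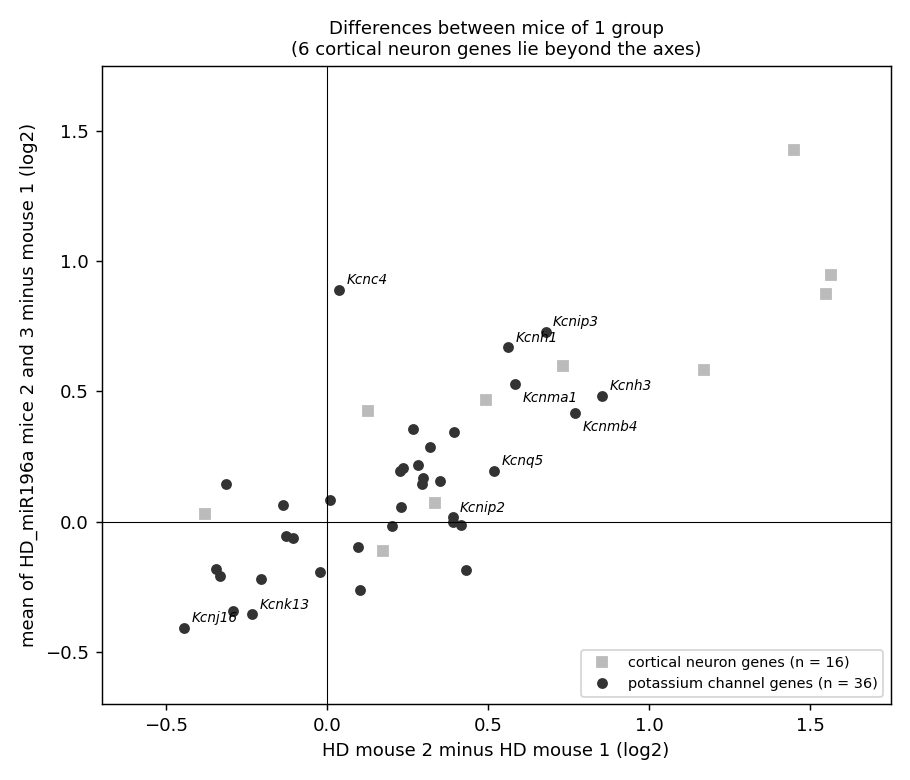
Difference between mice of 1 group on the log2 scale, HD mouse 2 minus HD mouse 1 (horizontal axis) and the mean of HD_miR196a mice 2 and 3 minus mouse 1 (vertical axis), for the 36 potassium channel genes above the olfactory receptor 95th percentile (black circles) and 16 cortical neuron genes above it (grey squares, 6 of them beyond the axes). Kcnip3, Kcnh1, Kcnh3, Kcnma1 and Kcnmb4 lie to the upper right, where mouse 1 was low in each group, and Kcnj16 and Kcnk13 to the lower left.

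Genes that work with potassium channels but carry other names were read beside them. Of 30 such partners 29 were measured and 25 lay above the background limit. In HD_miR196a mice 17 were higher, with a median of 0.04, and 0 were called. Cntnap1, whose product sits beside the node of Ranvier, had 10.85, 11.04 and 10.88 in HD_miR196a mice, against 10.44 and 10.76 in HD mice, a difference of 0.32 ± 0.14 (SE). Adam23, a receptor of the Kv1 modulator Lgi1, differed by -0.23 ± 0.11 (SE), with groups that did not overlap. Dpp10, an accessory subunit of Kv4 channels, differed by -0.18 ± 0.13 (SE), and the probe of Dpp6, another one, was at the floor of 0 in all 5 mice.

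Promoter sequence was looked up for the members in RefSeq (GRCm38.p6), as windows from 250 bases before to 50 after a start. Windows were found for 69 of the 90 genes, 94 in all, with a median of 9 CG dinucleotides beside 7 over 32851 windows of all genes. The 3 short motifs searched, on both strands, were TGACG, the core of the site bound by CREB, and CAGCACC and GGACAGC, the left and right part of the site of the neuronal repressor REST. The REST pair can overlap by CAGC. They occurred in 20.2%, 10.6% and 12.8% of the members' windows, and in 20.8%, 7.14% and 6.56% of all windows. The windows of the striatal marker genes Kcnip2 and Kcnj4 are printed because these genes characterise medium spiny neurons. That of Kcnip2 is chr19:45816014-45816313 and that of Kcnj4 chr15:79505192-79505491, both on the minus strand, and capitals mark the motifs found.
Kcnip2: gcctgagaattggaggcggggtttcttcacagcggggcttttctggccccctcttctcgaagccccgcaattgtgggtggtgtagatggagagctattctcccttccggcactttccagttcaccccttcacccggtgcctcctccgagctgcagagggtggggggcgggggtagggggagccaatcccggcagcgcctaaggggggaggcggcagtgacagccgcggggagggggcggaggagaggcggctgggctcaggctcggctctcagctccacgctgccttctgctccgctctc
Kcnj4: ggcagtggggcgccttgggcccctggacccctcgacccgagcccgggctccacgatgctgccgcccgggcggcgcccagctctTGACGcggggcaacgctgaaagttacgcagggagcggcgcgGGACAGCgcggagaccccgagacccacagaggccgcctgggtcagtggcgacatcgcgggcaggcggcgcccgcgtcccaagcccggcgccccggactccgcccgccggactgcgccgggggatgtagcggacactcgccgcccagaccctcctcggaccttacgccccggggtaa
The Kcnip2 window holds 18 CG dinucleotides and 0 of these motifs, and the Kcnj4 window 41 and 2. A match is a string of letters and not evidence of binding.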

How the data were processed

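Per the labels, striatal RNA of each mouse was amplified, labelled with Cy5 and hybridised to a 1-colour mouse array. The authors deposited 1 linear intensity per mouse for each probe, covering 2 technical repeats, so the mouse is the replicate. That background had been subtracted was inferred from values below 0. No label or header names the scanner, its software or any scaling. Intensities were quantile-normalized, floored at 1 and log2-transformed. All 26423 probes were fitted with limma 3.58.1 under R 4.3.3 (eBayes on 3 residual degrees of freedom plus a prior of 1.75), HD_miR196a minus HD, two-sided, with Benjamini-Hochberg adjustment over all probes at 0.05. The code was tested on simulated data. An exact permutation test of 3 against 2 mice cannot give a p below 0.1, and the number of arrays limits the precision.

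Platform symbols were updated through RefSeq names (GRCm38.p6), and all 105 Kcn probes matched. Members and gene lists were chosen with earlier results of these data known, and the choroid plexus list after seeing these values. Named genes were a fixed set of 32 (29 measured) and the 2 brightest of each subfamily. Added to these, among genes above the background limit, were the 6 with the smallest p per direction, 43 in all. Others are marked in the text, except Kcnh2, Kcna3, Kcna5 and Kcna10, which appear only where a group of genes is listed in full.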

Additional observations from a re-analysis of the deposited data

How the results depend on the processing

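Under all 16 alternatives 0 potassium channel genes were called, and 34 to 38 lay above the background limit. The 48 of 90 higher members became 15 without scaling, which moved the median over every probe to -0.20, 24 of 46 when only the 13211 brightest probes were tested, 42 of 75 when the 19817 brightest were, and 42 to 61 of 90 elsewhere. Their median of 0.03 became -0.157 without scaling and -0.031 with the replicate block over the mice numbered 1 and 2, and ranged from -0.031 without HD_miR196a mouse 3 to 0.078 without HD_miR196a mouse 1. Fits without an HD mouse assume that the lone one varies like the other group. Over all probes the count of 0 became 4 with intensities floored at the median of olfactory receptors, 1 among the 19817 brightest probes and 3 with trend and robust settings, and 0 to 3 with 1 mouse left out (3 when either HD mouse was the one removed). The cause of these changes was not tested. The labels do not say that equal numbers pair mice: deviations from the group mean correlated at 0.236 (number 1) and 0.170 (number 2), and the block changed no call. Of 757 values of 48 genes, 656 kept their sign and 101 changed it, with no call in either fit. 10 genes kept their sign under every alternative that tested them. Higher were Kcnip2 (0.22 to 0.62), Kcnh4, Kcnk13, Kcnt1, Kcnj8, Kcnj13, Kcnj16 and Kcnn4, and lower were Kcnk6 and Kcnrg. All alternatives reuse the same arrays, and several of these genes were named for a small p, so a kept sign is no separate support. Each alternative but the mean of a gene's probes used the same probe per gene. The probes of Kcnn4 differed in sign, as given above. Low signal limits what the 54 dimmer members can show.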

Other observations

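Kcnj13, an inward rectifier known from choroid plexus and retina, is outside the naming rule and was picked for its spread. Its level was 3.70, 6.15 and 5.73 in HD_miR196a mice, against 4.58 and 4.62 in HD mice, and a second probe gave 3.07, 6.68 and 5.92 in HD_miR196a mice, against 4.04 and 3.48 in HD mice. Both probes were high in HD_miR196a mice 2 and 3 and all values were below the background limit. Choroid plexus genes did not follow this order: the mean of 10 genes was 8.27, 7.57 and 7.53 in HD_miR196a mice, against 7.97 and 7.66 in HD mice, and Ttr, the choroid plexus transthyretin, was at 10.64 in HD_miR196a mouse 1 and between 7.09 and 7.70 in the other 4.

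Kcnv1 and Kcnj5, also picked for their spread, varied in opposite directions within the groups. Kcnv1, a silent Kv subunit, had 6.54, 7.97 and 7.79 in HD_miR196a mice, against 6.87 and 8.53 in HD mice. Kcnj5, a G-protein-gated subunit, had 7.70, 6.43 and 7.41 in HD_miR196a mice, against 8.05 and 6.25 in HD mice. Their group differences were -0.27 ± 0.68 and 0.03 ± 0.67 (SE).

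Some members are direct neighbours among protein-coding genes of RefSeq (GRCm38.p6), 18 genes in 10 adjacent pairs. In 4 of these pairs 1 gene was above the background limit and the other below it: Kcnj10 and Kcnj9 on chromosome 1, Kcna2 beside Kcna3 and Kcna10 on chromosome 3, and Kcna1 and Kcna5 on chromosome 6.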
